A study of Mus musculus with 12 samples.

Results

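*Hoxa9*, *Hoxa10*, *Hoxa11* and *Hoxa13* lie next to each other at one end of the HoxA cluster on mouse chromosome 6, all on the minus strand. The locus described here holds every listed ChIP-seq summit within 500 kb of the bodies of these 4 genes, which gives the window chr6:51723100-52760880 of mm10. It contained 413 of the 268431 summits in the 12 deposited peak lists. The window was read in 3 zones: the HoxA cluster itself (105 kb, ending at *Hoxa13*), the flank on the *Skap2* side (432 kb, containing *Skap2*) and the flank on the *Hoxa13* side (500 kb, containing *Evx1*, *Hibadh* and the start of *Tax1bp1*). *Hoxa9* (ENSMUSG00000038227) spans 52223100 to 52231089, *Hoxa10* (ENSMUSG00000000938) 52231197 to 52240854, *Hoxa11* (ENSMUSG00000038210) 52242106 to 52245810 and *Hoxa13* (ENSMUSG00000038203) 52257694 to 52260880.

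The study profiled β-catenin and H3K27ac in mouse forelimb buds by ChIP-seq. Pregnant wild-type Swiss Albino females received DMSO or C59 at E10.5, the latter at 10 µg per g of body weight, and forelimb buds were collected 6 h later. C59 inhibits porcupine, the enzyme needed for secretion of WNT ligands. Each antibody and treatment had 2 replicates, each a pool of 20 forelimb buds, and chromatin for β-catenin was additionally crosslinked with DSG. Both groups carried no engineered allele, C59 acted on dam and embryo as a whole, and every value is an average over all cells of the bud. In such bulk tissue, fewer cells with a signal and less signal per cell cannot be told apart.

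Hox genes encode homeodomain transcription factors that assign position along body and limb axes. In the limb bud, *Hoxa9* and *Hoxa10* are linked to the upper limb segments, *Hoxa11* to the zeugopod and *Hoxa13* to the autopod, the future hand. Their expression is controlled by enhancers in and around the cluster. β-catenin carries the canonical WNT signal into the nucleus, where it is brought to DNA by TCF/LEF proteins, while H3K27ac marks active promoters and enhancers.

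The sequences under 7 β-catenin summits of the DMSO consensus list are shown because the results below turn on them. They are 121 bases of GRCm38 centred on each summit, 5′ to 3′ on the plus strand, with TCF/LEF cores (ATCAAAG or TTCAAAG on either strand) in capitals. The first is the strongest summit of the locus by consensus fold and the next is the strongest of the *Skap2*-side flank. Those at *Hoxa4* and between *Hoxa7* and *Hoxa9* are the cluster summits of highest fold and of highest coverage. The next lies in the intron of *Hoxa11*, the one beyond *Hoxa13* is the nearest summit of the *Hoxa13*-side flank that holds a core, and the last is a strong summit in an acetylated region and holds none.
Near Hibadh, chr6:52540113-52540233: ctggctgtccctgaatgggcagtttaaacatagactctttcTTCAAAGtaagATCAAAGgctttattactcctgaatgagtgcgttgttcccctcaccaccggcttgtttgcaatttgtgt
Skap2 intron, chr6:51961159-51961279: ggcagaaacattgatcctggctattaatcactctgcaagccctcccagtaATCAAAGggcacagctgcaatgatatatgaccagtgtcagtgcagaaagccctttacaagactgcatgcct
Hoxa4, chr6:52190918-52191038: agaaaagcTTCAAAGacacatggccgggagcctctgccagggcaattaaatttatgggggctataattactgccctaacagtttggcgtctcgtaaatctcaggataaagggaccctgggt
Between Hoxa7 and Hoxa9, chr6:52222083-52222203: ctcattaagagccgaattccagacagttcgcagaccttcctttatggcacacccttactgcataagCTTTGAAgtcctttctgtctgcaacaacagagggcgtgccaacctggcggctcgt
Hoxa11 intron, chr6:52244586-52244706: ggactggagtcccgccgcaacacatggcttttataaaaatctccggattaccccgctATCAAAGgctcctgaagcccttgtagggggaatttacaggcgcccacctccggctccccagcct
Beyond Hoxa13, chr6:52276477-52276597: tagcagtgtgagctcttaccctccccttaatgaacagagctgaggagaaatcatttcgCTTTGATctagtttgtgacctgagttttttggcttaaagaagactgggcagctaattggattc
Between Evx1 and Hibadh, chr6:52443340-52443460: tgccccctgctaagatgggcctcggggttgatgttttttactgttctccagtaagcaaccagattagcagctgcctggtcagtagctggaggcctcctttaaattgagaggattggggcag
In the *Hoxa11* intron the printed core is centred on the summit base itself, and at the summit beyond *Hoxa13* the core lies 1 bp from the summit. A second core of the *Hoxa11* intron summit lies 73 bp to the left, outside the bases printed. The first sequence shows 2 cores within 16 bp of the summit, and a further one lies 88 bp to the left, outside the bases printed.

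β-catenin was listed along the whole locus in DMSO-treated forelimb buds and nowhere in it after C59. The DMSO replicates listed 46 and 49 summits in the window, and both C59 replicates listed 0. The mean was 47.5 ± 2.12 (SD, n = 2) against 0, and the groups did not overlap. The two-sided exact permutation test gave p = 0.333, the smallest value that 2 against 2 libraries allow. The methods describe replicates drawn from several litters but do not say how litters were divided between the 2 pools of a group, so p-values here measure only the spread between these samples. The DMSO consensus list held 37 summits, each inside a peak of both replicates. All 37 lay outside every region of the C59 consensus list, as did 98.7% of the 16238 β-catenin summits of the genome, so the loss of listed summits at HoxA was close to that of the whole list. The same was seen for 44 of 44 summits around the posterior HoxD genes, 19 of 19 around the posterior HoxC genes and 23 of 23 around the posterior HoxB genes.

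The C59 lists did not lack all signal. They held 330 and 358 summits in all, against 20203 and 25836 in DMSO. At *Axin2*, a direct WNT target, β-catenin was listed at 4.67-fold and 6.61-fold over expected coverage in the C59 replicates, lower than in either DMSO replicate. It was the only 1 of 4 WNT targets examined that was listed after C59. *Sp5* (13.4-fold and 15.4-fold) and *Nkd1* (6.01-fold and 6.03-fold) had β-catenin near a start in the DMSO replicates alone, and *Lef1* in no library. Of the markers examined for tissue identity, 5 of 5 forelimb mesenchyme genes (*Tbx5*, *Prrx1*, *Fgf10*, *Lhx9* and *Hand2*) carried H3K27ac at a start site in all 4 libraries. None of 5 ectoderm and ridge genes, 3 neural genes or 3 endothelium and blood genes did so. However, *Cdh1* (ectoderm) and *Cdh5* (endothelium) were listed in every library except DMSO replicate 1, while the 3 neural genes were listed in none. Of 3 hindlimb genes *Tbx4* was listed in all 4 libraries, *Isl1* in all except DMSO replicate 1 and *Pitx1* in none. Of 3 muscle precursor genes *Lbx1* was listed in all 4, *Pax3* in replicate 2 of each treatment and *Myf5* in none. The summed fold of the mesenchyme genes was 18.8 and 19.0 in DMSO and 21.4 and 20.6 after C59, and any part of tissue makeup in the results was not tested.

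How far the absence of a C59 summit bounds β-catenin depends on the level that a C59 library could have listed. Coverage is given here as the number of fragments at a summit over the background that the peak caller expected genome-wide in the same library. These backgrounds were 1.57 and 1.81 fragments in DMSO and 1.83 and 1.82 after C59. Because the C59 lists are short, their listing threshold was stricter, with lowest −log10 p of 5.69 and 5.72 against 3.89 and 3.79 in DMSO. At the C59 limits, 38 and 37 of the DMSO summits of the locus would still have been listed. If the expected coverage at each summit is taken as in DMSO, 29 of the 37 consensus summits exceeded in both DMSO replicates the level needed in both C59 lists, 19 did so by 1.5 times, 9 by 2 times and 0 by 4 times. The ratio had a median of 1.54 and was highest, at 3.29, for the *Hoxa4* summit. Under that assumption, a signal at the observed DMSO level would have been listed in both C59 lists at 29 positions. At some of these the margin was narrow, as at 52271354, with 8.27 times background in DMSO replicate 2 against 7.70 needed. A missing listing at such a narrow margin cannot tell a decrease from counting noise. At no position could a decrease of more than 3.29-fold be read from these lists. At the other 8 positions the level needed was not exceeded in both replicates. At the *Hoxa11* start the ratio was 1.10 in replicate 1 and 0.836 in replicate 2, and at the *Evx1* start 1.33 and 0.789. The summit at 51895082 was the only one below the level needed in both replicates (0.954 and 0.730), so that there a signal as high as in DMSO would have been listed in neither C59 list.

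**Figure D1:**
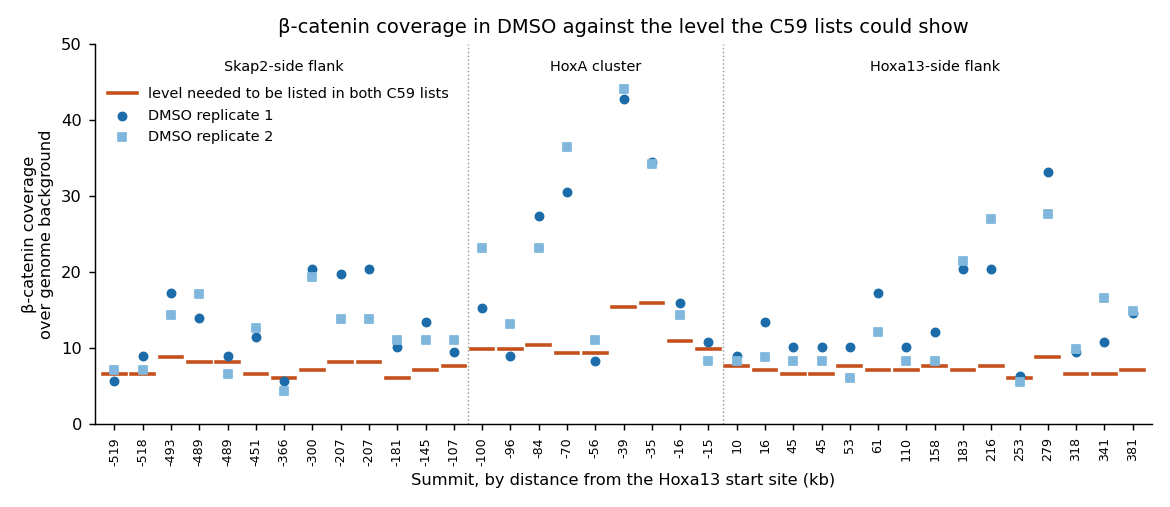
β-catenin coverage over genome background (y axis) at the 37 DMSO consensus summits of the locus, ordered along the chromosome by distance in kb from the *Hoxa13* start site; points are the DMSO replicates and orange bars the level needed for a listing in both C59 lists. Both points lie above the bar at 29 summits, with the widest margin (3.29 times) at *Hoxa4*, 70 kb from the *Hoxa13* start on the *Skap2* side.

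The summits were spread over all zones in DMSO. On the *Skap2*-side flank 17 and 16 were listed in the replicates, in the cluster 12 and 15, and on the *Hoxa13*-side flank 17 and 18, and the replicates differed by 3 summits at most. The consensus list held 13, 9 and 15. Fold enrichment of the consensus summits ran from 3.06 to 14.1 with a median of 6.16, against 6.75 for the whole list. By coverage over background the cluster came first, with a median of 19.9 against 11.7 on the *Skap2* side, 9.77 on the *Hoxa13* side and 10.4 over the whole list. By fold it came last, with medians of 5.43, 7.17 and 6.02 in the same order. The peak caller divides by the expected coverage of the surroundings, which is raised where many fragments lie close together, so that the fold understates coverage inside the cluster. Summits found in both replicates were the stronger ones: 35 of 46 (76.1%) in replicate 1 and 32 of 49 (65.3%) in replicate 2 were shared, with median folds of 5.74 and 6.36. The unshared summits had median folds of 3.98 and 3.80.

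Beyond *Hoxa13*, the strongest summit of the locus by consensus fold was at 52540173, 279 kb from the *Hoxa13* start. It lay 16.3 kb from the nearest start of *Hibadh*, a gene of valine catabolism. It was listed at 12.3-fold and 11.1-fold in the DMSO replicates (52 and 50 fragments, 33.1 and 27.6 times background) and at 14.1-fold in the consensus list. In replicate 2 the summits at *Hoxa4* (12.3-fold) and 52476901 (12.2-fold) were higher. By consensus coverage (33.2 times background) it was below the cluster summits at 52222143 (42.7), *Hoxa4* (35.2) and *Hoxa9* (33.9). The summit at 52540173 lay 96.2 kb from the nearest H3K27ac region of the DMSO consensus list, and its replicates were close in level. DMSO replicate 1 alone listed a nearer H3K27ac region, 52514100 to 52514330, at 3.52-fold. The next summits of this flank were 52443400 at 9.58-fold and 11.1-fold, and 52476901 at 9.42-fold and 12.2-fold. They lay 183 and 216 kb from the *Hoxa13* start. The former lay inside an H3K27ac region of the DMSO consensus list. The summits at 52601752 in an intron of *Hibadh* (5.29-fold and 9.88-fold) and at 52321854 beyond *Evx1* (7.95-fold and 6.63-fold) completed the 5 strongest, and of these 5 the *Hibadh* intron summit differed most between replicates. On this flank 12 of 15 summits lay outside coding genes, 2 in a *Hibadh* intron and 1 in an *Evx1* UTR.

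On the *Skap2* side the strongest summit was at 51961219, in an intron of *Skap2*, which encodes a signalling adaptor. It lay 300 kb from the *Hoxa13* start and reached 10.9-fold and 10.4-fold (20.4 and 19.3 times background). The next by consensus fold were 51809485 (6.21-fold and 7.40-fold), 52053970 (7.53-fold and 6.51-fold), 52054338 (7.78-fold and 6.53-fold) and 52079729 (6.24-fold and 6.57-fold). These 4 were close to each other in fold, and by fold all below the *Skap2* intron summit in both replicates. By coverage in DMSO replicate 1, 52054338 equalled the *Skap2* intron summit at 20.4 times background. None of the 13 consensus summits of this flank lay less than 1 kb from an annotated start site, and 11 lay outside coding genes.

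**Figure D2:**
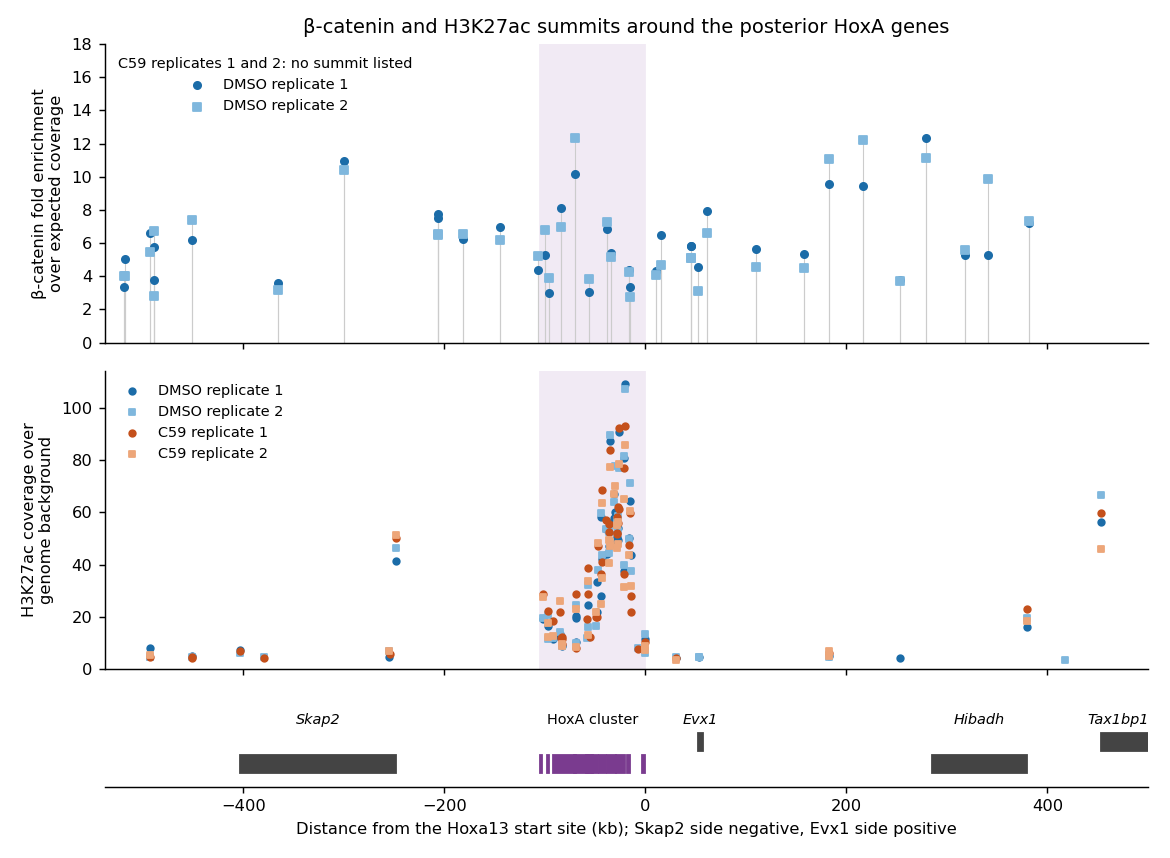
β-catenin fold enrichment (upper panel) and H3K27ac coverage over genome background (lower panel) at summits in single libraries, against distance in kb from the *Hoxa13* start site, with coding genes drawn to scale and the HoxA cluster shaded. β-catenin points, all from DMSO, are spread over the cluster and both flanks. The highest are at *Hoxa4* in replicate 2 (12.34-fold) and 279 kb beyond the *Hoxa13* start in replicate 1 (12.32-fold). H3K27ac summits crowd in the cluster, 37 in each DMSO replicate.

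Inside the cluster all 9 consensus summits lay less than 1 kb from a start site of any annotated gene, coding or not. This compared with 0 of 13 and 1 of 15 on the flanks and 16.3% of all summits. At 52161172 and at the *Hoxa11* intron summit only a non-coding start was that near, with the nearest coding start 2855 and 1149 bp away. Among the posterior genes, *Hoxa9* had 1 summit in the consensus list, at 52226373 in its annotated UTR and 184 bp from a start. Each DMSO replicate listed 2 summits less than 1 kb from its starts. The consensus summit reached 5.37-fold and 5.18-fold in the DMSO replicates, from 54 and 62 fragments. Its coverage in these replicates was 34.4 and 34.2 times background. In the consensus list it stood above 28.6% of all summits by fold (5.43) and above 94.2% by coverage (33.9 times background). The summit between *Hoxa7* and *Hoxa9* at 52222143, 289 bp from the *Hoxa7* start, had the highest coverage of the locus. It had 67 and 80 fragments or 42.7 and 44.1 times background, at 6.86-fold and 7.27-fold. In the consensus list it exceeded 96.4% of all summits by coverage and 55.9% by fold.

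*Hoxa11* had 2 summits. The one in its intron at 52244646, shown above with a core, was listed at 4.40-fold and 4.23-fold (25 and 26 fragments). The one at 52245880, 70 bp from the start, was at 3.33-fold and 2.76-fold (17 and 15 fragments). The replicates differed by 2 fragments at most, and both summits were below the *Hoxa9* summit. *Hoxa10* had a single listing, in DMSO replicate 2 alone, at 2.82-fold from 14 fragments, and none in the consensus list. *Hoxa13* had none within 1 kb of a start in any list. Its nearest summit lay outside the cluster at 52271354 (10474 bp away, consensus fold 5.13), followed by the *Hoxa11* start summit inside the cluster and by 52276537 outside it (15.7 kb away, 6.50-fold and 4.69-fold). In order of coverage at summits less than 1 kb from a start, the 4 genes ran *Hoxa9*, *Hoxa11*, *Hoxa10*, *Hoxa13*. The *Hoxa11* start summit had 10.8 and 8.27 times background, in replicate 2 close to the single *Hoxa10* value of 7.72. The *Hoxa11* intron summit (15.9 and 14.3 times background) lay 1149 bp from the nearest *Hoxa11* start, beyond that limit.

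Among the other HoxA genes, which act at more anterior levels of the body axis, *Hoxa4* had the highest fold. Its summit at 52190978 in an intron shared by *Hoxa3* and *Hoxa4* reached 10.2-fold and 12.3-fold (48 and 66 fragments). The summits at 52177156 (8.13-fold and 6.97-fold) and 52161172 (5.30-fold and 6.78-fold) were also among the 5 strongest of the cluster by consensus fold. Near start sites, *Hoxa7* had the summit at 52222143 given above, *Hoxa2* was at 2.995-fold and 3.87-fold and *Hoxa5* at 3.02-fold and 3.82-fold. *Hoxa3* was at 4.33-fold in replicate 2 and not listed in replicate 1. *Hoxa6* and the non-coding genes *Hotairm1* and *Hottip* had no summit near a start in either replicate, although 52161172 lies within *Hotairm1*, and none of these genes had one after C59.

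TCF/LEF cores were found at β-catenin summits of the locus about as often as at all summits. Of the 200-bp windows centred on the 37 summits, 12 (32.4%) held ATCAAAG or TTCAAAG on either strand, compared with 28.6% of 16193 windows over the genome. Windows 2 kb to either side held one in 12.2% of cases in the locus and 8.69% over the genome. By zone the counts were 4 of 13 on the *Skap2* side, 6 of 9 in the cluster and 2 of 15 on the *Hoxa13* side, numbers too small to rank the zones. The hexamer CATAAA, a core bound by posterior HOX proteins, was held by 12 of 37 windows (32.4%) against 23.3% of all, again 6 of 9 in the cluster, with 1 of 13 and 5 of 15 on the flanks. CAATAAA, in part the same letters, was held by 3 of 37 against 8.43% of all. CAGCTG was held by 6 of 37 (16.2%) against 18.8% of all and TAATTA by 3 of 37 (8.11%) against 14.8%. Of the 5 promoter windows of the 4 genes in RefSeq (250 bases before to 50 after the start, GRCm38), that of *Hoxa11* held a TCF/LEF core, as did 8.65% of 32851 promoters, and 0 held CATAAA, against 11.9%. These are matches of letters only.

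**Figure D3:**
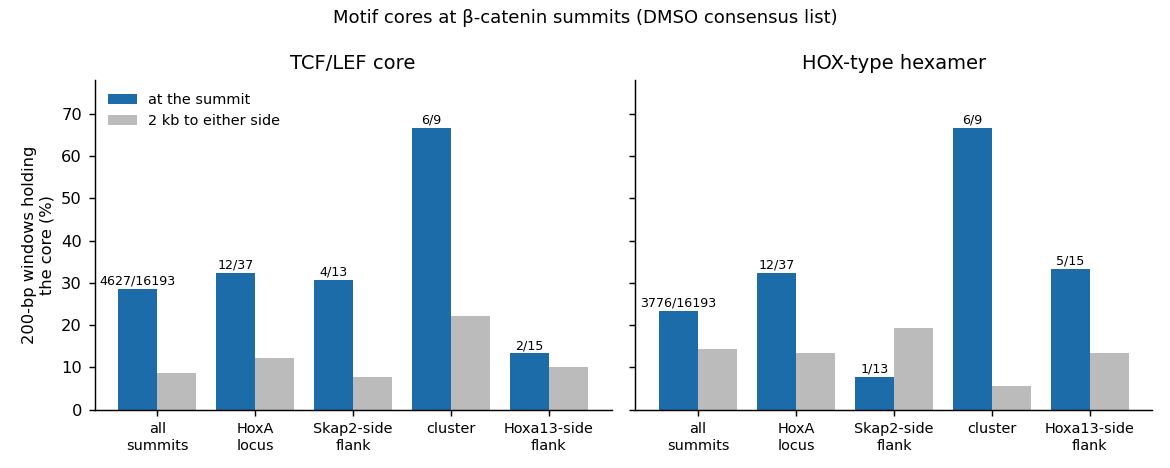
Share of 200-bp windows (%) holding a TCF/LEF core (left) or the HOX-type hexamer (right) at β-catenin summits, for all summits, the locus and its 3 zones, with counts above the blue bars; grey bars are windows 2 kb to either side. For the TCF/LEF core the locus (12 of 37) stands near all summits (28.6%), and the cluster holds 6 of its 12 windows.

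The β-catenin summits of the locus mostly lay outside acetylated regions. Only 3 of 37 (8.11%) were inside an H3K27ac region of the DMSO consensus list, compared with 22.2% of all β-catenin summits. When the regions were extended by 1 kb the count was 12 of 37 (32.4%), against 34.2% of all. Of these 12, 8 were in the cluster, where 8 of 9 summits lay within 1 kb of an H3K27ac region and the median distance was 0.172 kb. On the flanks the median distance was 25.5 kb on the *Skap2* side and 14.4 kb on the *Hoxa13* side, compared with 19.7 kb over all summits. The 3 summits inside were 51767660 on the *Skap2* side, the *Hoxa11* intron summit and 52443400 between *Evx1* and *Hibadh*. The *Hoxa9* summit lay 261 bp from an H3K27ac region. Around 52443400 the single libraries listed acetylation in 2 neighbouring regions. The one that reaches the summit, 52443051 to 52443409, was listed in DMSO replicate 2 (4.26-fold) and C59 replicate 2 (3.61-fold) and in neither replicate 1. The other, 52443558 to 52443976, was at 3.77-fold and 3.604-fold in DMSO and 4.75-fold and 4.97-fold after C59, with both C59 values above both DMSO values (log2 difference 0.40 ± 0.12 SE, limma, adjusted p = 0.447). The latter region does not reach the β-catenin summit. A separation in this direction was seen in 20.9% of the H3K27ac regions of the genome listed in all 4 libraries.

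H3K27ac was concentrated in the cluster in both treatments. The DMSO replicates listed 48 and 52 summits in the window and the C59 replicates 51 and 44, with overlapping values (two-sided exact permutation test, p = 0.667). In the cluster 37 and 37 were listed in DMSO and 40 and 36 after C59. The flanks held 5 and 7 against 7 and 3 on the *Skap2* side, and 6 and 8 against 4 and 5 on the *Hoxa13* side, the only zone where the groups did not overlap (exact permutation test, p = 0.333, the smallest possible). From *Hoxa9* to *Hoxa13* the counts were 20 and 21 in DMSO and 19 and 20 after C59. The strongest acetylation by fold was at start sites of neighbouring genes. *Skap2* was at 17.9-fold and 19.97-fold in DMSO and 23.1-fold and 22.1-fold after C59. *Tax1bp1* was at 14.6-fold and 18.6-fold against 16.5-fold and 14.5-fold, and *Hibadh* at 9.05-fold and 11.9-fold against 13.9-fold and 11.5-fold. Of these 3 genes only *Skap2* was separated between treatments (limma, adjusted p = 0.599). Both C59 folds lay above both DMSO folds there, as in 20.9% of the 17498 regions of the genome listed in all 4 libraries.

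The highest acetylation of the cluster by coverage was at *Hoxa10* and *Hoxa9*. *Hoxa10* had 109 and 107 times background in DMSO and 93.0 and 85.7 after C59 at its highest summit, from 293, 309, 295 and 255 fragments. *Hoxa9* had 87.4 and 89.4 in DMSO and 83.8 and 77.3 after C59, and *Hoxa11* had 64.3 and 71.4 against 59.9 and 60.5. *Hoxa13* had far less, 11.5 and 13.5 in DMSO and 10.4 and 9.07 after C59. At each of the 4 genes both C59 values lay below both DMSO values, as they did in 34.5% of the 17498 H3K27ac regions of the genome listed in all 4 libraries. The order *Hoxa10*, *Hoxa9*, *Hoxa11*, *Hoxa13* held in all 4 libraries, with no overlap between neighbours within a treatment. These values are counts at a summit and do not depend on gene length.

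On the deposited fold scale the same genes did not separate in this way. *Hoxa10* was at 4.24 and 4.31 in DMSO and 4.38 and 4.33 after C59. *Hoxa9* was at 2.37 and 2.401 against 2.27 and 2.26, *Hoxa11* at 3.14 and 3.72 against 3.40 and 3.75, and *Hoxa13* at 4.60 and 4.88 against 5.50 and 4.84. Both C59 values lay below both DMSO values at *Hoxa9* and above them at *Hoxa10*, and the groups overlapped at *Hoxa11* and *Hoxa13*. Over all 17498 regions of the genome, both C59 folds lay below both DMSO folds in 19.4% and above them in 20.9%. In DMSO the expected coverage around *Hoxa9* reached 43.5 times the genome background, which lowers its fold.

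Some of the more anterior genes were separated in the other direction. Highest coverage over background at *Hoxa3* was 33.5 and 38.1 in DMSO and 47.3 and 48.4 after C59. At *Hoxa5* it was 24.5 and 32.2 against 38.8 and 33.9, and at *Hoxa7* 58.4 and 59.6 against 68.4 and 63.5. At these 3 genes both C59 values lay above both DMSO values, as they did in 13.1% of the 17498 regions of the genome, or in 28.7% once each library's median was subtracted. *Hoxa2* (16.4 and 20.8 against 22.4 and 17.8) and *Hoxa4* (20.5 and 24.6 against 28.7 and 23.2) overlapped, and *Hoxa6* had no H3K27ac summit near its start in any library.

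**Figure D4:**
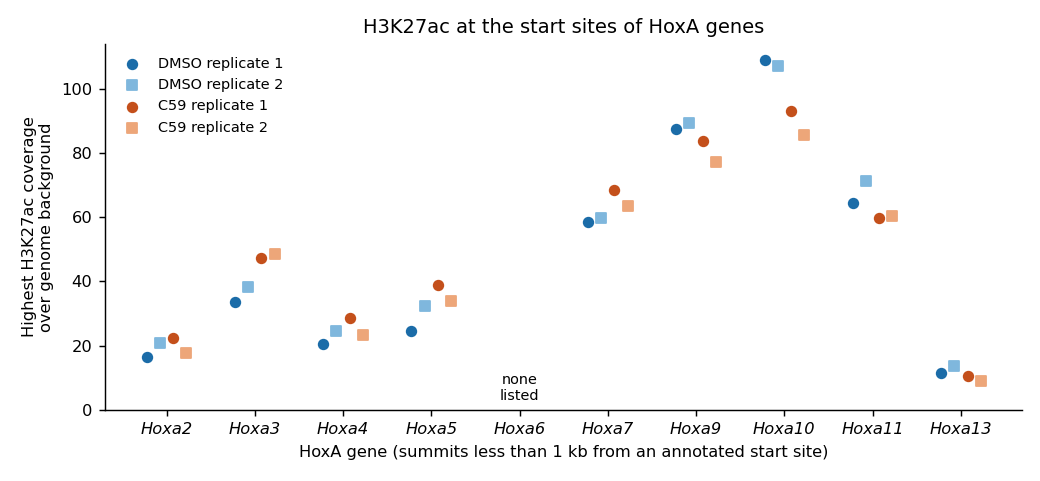
Highest H3K27ac coverage over genome background (y axis) at summits less than 1 kb from a start site of HoxA genes (x axis, in chromosomal order), one point per library. At *Hoxa9*, *Hoxa10*, *Hoxa11* and *Hoxa13* both C59 points lie below both DMSO points (for example 93.0 and 85.7 against 109 and 107 at *Hoxa10*), and at *Hoxa3*, *Hoxa5* and *Hoxa7* above them.

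To compare H3K27ac levels with their error, overlapping peaks of the 4 libraries were merged into regions. The log2 of the highest fold was compared with limma over the 17498 regions of the genome listed in all 4 libraries. No region passed an adjusted p of 0.05, in the locus (0 of 25) or in the genome (0 of 17498, or 0%). At an unadjusted p under 0.05 there were 5 in the locus (20%) against 9.33% of all. None of the 4 member start regions passed: *Hoxa9* at −0.07 ± 0.11 (limma, adjusted p = 0.885), *Hoxa10* at 0.03 ± 0.11 (0.963), *Hoxa11* at 0.06 ± 0.14 (0.926) and *Hoxa13* at 0.12 ± 0.13 (0.815). The median log2 difference over the 25 regions was 0.12, against 0.00297 over all. The 10 regions from *Hoxa2* to *Hoxa7* had a median of 0.20, with 8 positive and 2 negative, and the 7 from *Hoxa9* to *Hoxa13* a median of 0.03, with 5 positive and 2 negative.

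The same fit on coverage over background gave 296 regions past the threshold over the genome (1.69%, 57 higher and 239 lower) and 1 in the locus. This region, 52175591 to 52176126 in an intron of *Hoxa3*, was at 2.84-fold and 3.10-fold in DMSO and 3.89-fold and 5.28-fold after C59. Its log2 difference in coverage was 0.80 (limma, adjusted p = 0.0424), and on the fold scale 0.61 ± 0.17 (adjusted p = 0.444). After subtraction of each library's median coverage, an alternative added after the data had been seen, it was 0.93 with an adjusted p of 0.149, and limma called 0 regions in the locus and 0 in the genome, with 7 and 2954 at an unadjusted p under 0.05. On the coverage scale the median of all 17498 regions was −0.10, so that a library-wide offset of this size has to be set against each value. The 7 regions from *Hoxa9* to *Hoxa13* had a median of −0.17, with 1 positive and 6 negative, and those from *Hoxa2* to *Hoxa7* a median of 0.24.

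Both C59 values lay below both DMSO values in 5 of the 7 posterior regions, against 34.5% of all regions, and above them in 6 of the 10 anterior regions, against 13.1% of all. After subtraction of each library's median, the counts were 3 of 7 against 22% and 7 of 10 against 28.7%. The posterior median was then −0.04, and *Hoxa9*, *Hoxa10*, *Hoxa11* and *Hoxa13* stood at 0.00, −0.14, −0.04 and −0.23. The lowest posterior value was that of a second region at *Hoxa11*, 52246024 to 52246701. Its coverage was 43.5 and 37.4 times background in DMSO and 28.1 and 31.9 after C59, a log2 difference of −0.43 (limma, adjusted p = 0.243), or −0.30 after subtraction. None of the posterior regions passed the limma threshold on any of these scales, and the difference between the 2 ends of the cluster was not tested.

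**Figure D5:**
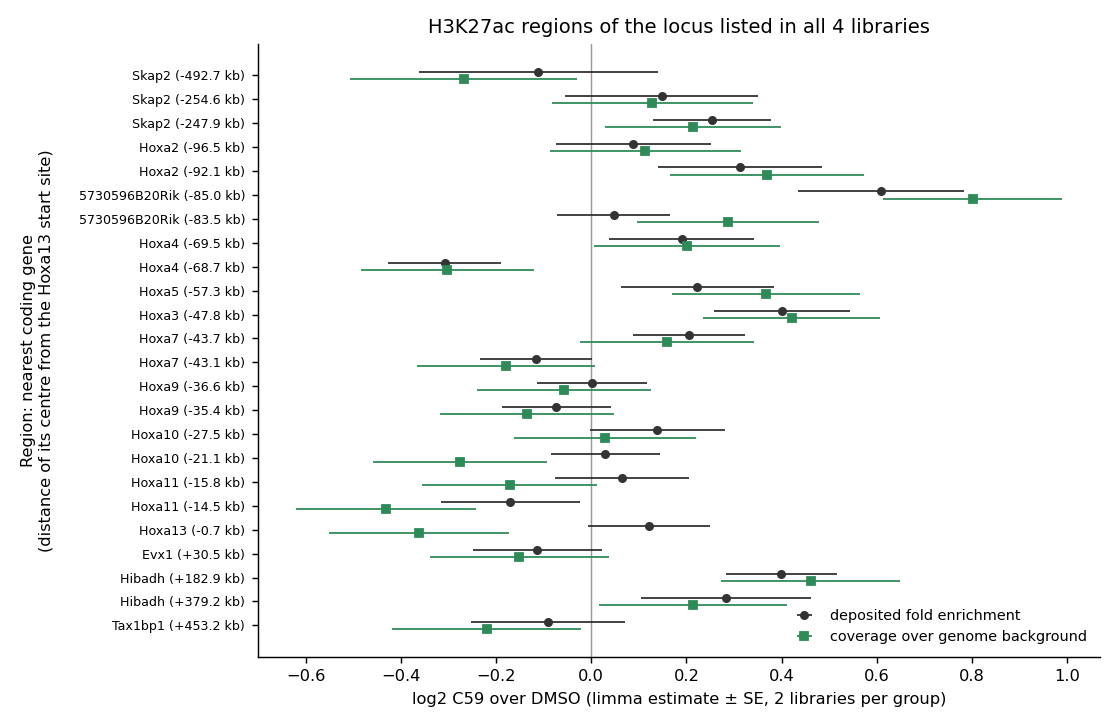
log2 difference of H3K27ac, C59 over DMSO (x axis; limma estimate ± SE, 2 libraries per group), for 24 regions of the locus listed in all 4 libraries, in chromosomal order (y axis), for the deposited fold and for coverage over genome background. On the coverage scale 6 of the 7 regions from *Hoxa9* to *Hoxa13* are below 0 and 8 of the 10 from *Hoxa2* to *Hoxa7* above 0; on the fold scale 5 of the 7 posterior regions are above 0, those at the starts of *Hoxa10*, *Hoxa11* and *Hoxa13* among them.

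The listing of H3K27ac changed at few places. Of the 42 DMSO consensus summits of the locus, 7 (16.7%) lay outside the C59 consensus regions, against 10.9% of all. In the reverse direction it was 3 of 44 (6.82%), against 9.14% of all. Merged over the 4 libraries, the locus had 43 regions, of which 25 were listed in all 4 libraries. In 1 the peak was listed in both DMSO libraries and no C59 library (2.33%, against 3.02% of all regions), and in 1 in both C59 libraries and no DMSO library (2.33%, against 2.15%). The former was the start of *Evx1*, a homeobox gene next to the cluster, at 52313581 to 52314282. It was listed at 3.80-fold and 3.86-fold in DMSO, from 13 and 14 fragments or 4.83 and 4.85 times background, and in neither C59 replicate. With so few fragments, a missing listing cannot tell a decrease from counting noise. The β-catenin summit of *Evx1* at 52313517 (4.54-fold and 3.11-fold in DMSO) lay beside this region. The latter, 52177835 to 52178081 in the anterior cluster, was listed at 1.94-fold and 2.03-fold after C59. Inside *Hoxa9*, the DMSO consensus regions 52228939 to 52229456 and 52229892 to 52230406 had no C59 consensus counterpart, but C59 replicate 2 listed both, so the 2 C59 libraries differed there.

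The genes most like each posterior gene were sought among 21911 genes by Euclidean distance of log2(1 + highest fold near a start) over the 8 libraries, for both antibodies. For *Hoxa9* these were *Hoxb2* (0.327), *Bicral* (0.411) and *Prrx1* (0.414), and for *Hoxa10* *Prdm16* (0.207), *Hand2* (0.229) and *Hoxb4* (0.266). For *Hoxa11* they were *Id3* (0.277), *Sema6a* (0.433) and *Bcl11a* (0.451), and for *Hoxa13*, which had H3K27ac alone, *Trib3* (0.0859), *Coq8b* (0.0934) and *Gsap* (0.119). No member was among the nearest of another.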

How the data were processed

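Forelimb buds were profiled with antibodies to β-catenin and H3K27ac, with 2 replicates per treatment. The 8 replicate and 4 consensus peak lists were used, and 4 input samples were not analysed here. Per the labels, the authors used cutadapt 4.1, Bowtie2 2.4.5 and MACS2 2.2.7.1, with Picard 2.27.4 for duplicates. The authors kept alignments of mapping quality 30 or more and called peaks without input. Consensus lists were called on both replicates at equal depth and hold summits shared by the peaks of each. Each deposited summit has a fold, the ratio over the expected coverage of its own library, with a p-value and a q-value, each as −log10. Total reads were not given, so depth is known only through the expected background, 1.57 to 1.83 fragments for β-catenin and 2.69 to 3.17 for H3K27ac.

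Fragments at a summit and their expected number were solved from the deposited fold and −log10 p, to within 0.01 apart from 1 summit in each of 2 consensus lists. Genes came from GENCODE M21 and sequences from GRCm38, the build of the files. H3K27ac regions were compared with limma 3.58.1 in R 4.3.3 with Benjamini-Hochberg adjustment, with no replicate block, and the fit was tested on simulated data. Replicates with the same number did not deviate together (correlation 0.0105). Counts per library were compared by exact permutation. The text names the 4 genes and their neighbours, the 5 strongest β-catenin summits of each zone, the strongest H3K27ac summits and the nearest 3 genes of each member; the members and lists were chosen with earlier results of these data known, and the *Hoxa3* intron region, the *Hoxa7* to *Hoxa9* summit and the regions listed in 1 treatment after their values were seen. Alternatives were other windows, thresholds, scales and single replicates. Blacklisted regions were not removed. A neighbouring gene is not reported here.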

Additional observations from a re-analysis of the deposited data

How the results depend on the processing

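With a window of 250 kb, the DMSO β-catenin consensus summits numbered 24, all 24 outside C59 regions. With 1000 kb there were 60, of which 59 lay outside, and 1 C59 summit was listed. H3K27ac summits within 1000 kb numbered 65 in DMSO and 67 after C59, of which 12 and 7 lay outside the other treatment's regions. Counted as peak regions, C59 had 26, 0 of them outside DMSO regions. From single replicates, C59 summits outside DMSO regions numbered 3 to 11. Within 1 kb of H3K27ac lay 32.4% of β-catenin summits. The TCF/LEF share ran from 20.4% (replicate 2 alone) to 37.8% (400-bp windows).

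On coverage over background, limma called 1 region in the locus and 296 in the genome, and 0 of either once library medians were subtracted. The locus median ran from 0.035 to 0.19 when single libraries were left out, lowest without DMSO replicate 1, and was 0.25 on centred coverage. Leaving out a library leaves its group with 1, assumed to vary like the other. *Hoxa10* turned to −0.28 on coverage and −0.14 on centred coverage, *Hoxa11* to −0.17 and −0.039, and *Hoxa13* to −0.36 and −0.23. *Hoxa11* also turned to −0.057 without DMSO replicate 1 and −0.01 without C59 replicate 2. The cause was not tested. The replicate block gave 0 called regions in the locus, with 1544 of the genome at an unadjusted p under 0.05, and changed no call. With 2 libraries per group and depth known only at summits, changes below the listing limits were not detectable.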
